A study of Mus musculus with 16 samples.

Results

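Collagens are the rod-shaped proteins from which most of the extracellular matrix is built. Each is a trimer of chains, and each chain has a gene of its own. Fibrillar collagens form the cables of connective tissue, collagen IV forms the sheet under epithelia and vessels, FACITs (fibril-associated collagens with interrupted triple helices) sit on the surface of fibrils, and the remaining types form beaded filaments, anchoring fibrils or transmembrane proteins. The chains are hydroxylated and folded in the endoplasmic reticulum, trimmed after secretion and crosslinked outside the cell. In the early embryo the collagen IV chains of basement membranes are made from the first epithelia onward, and type I collagen accumulates in mesenchyme.

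The genes described here are those with a symbol made of Col, a number, a and a number. The gene name given on the array selected 26 probes of 19 genes. Many further probes carry a RefSeq accession in place of a symbol, and naming these through RefSeq added 68 probes and 25 genes. The result was 94 of 60273 probes and 44 of 45012 named genes on the array, which are the 44 collagen chain symbols in the RefSeq table. By class there were 11 fibrillar genes, 6 collagen IV genes, 9 FACIT genes and 18 others.

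Expression was measured on 16 one-colour microarrays of differentiating CGR8-Myh6-GFP cells, a single mouse embryonic stem cell line with a green fluorescent reporter driven by the promoter of the cardiac myosin gene Myh6. All cultures carried this reporter and differentiated without added directing factors, as a mixture of cell types. From day 4 of differentiation they received the hawthorn (Crataegus) leaf and flower extract WS1442 at 0.25 mg/ml, its MeOH eluate, a fraction of that extract, at 0.1 mg/ml, or the vehicle DMSO, for 6 h or 24 h. Each time point had 2 DMSO, 3 WS1442 and 3 MeOH eluate samples. The DMSO samples served both treatments, so the treatment effects are not independent of each other, and the 2 preparations were given at different doses. The labels number the samples as replicates without saying that they were separate cultures, so the p-values measure the spread between these samples, which may be technical.

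The RNA integrity number was 8.6 to 10, and 55.1% to 63.0% of gene spots per array were well above background. All 6 pluripotency markers and 8 of the 9 cardiac markers looked up were measured. The summed level of 6 early mesoderm markers was lower in every treated sample: at 24 h it was 11.66 to 11.67 on the log2 scale with DMSO, 11.35 to 11.42 with WS1442 and 11.04 to 11.19 with the MeOH eluate. Such a sum follows its brightest members. At 24 h all 6 of these markers lay below 0 with both preparations. At 6 h 2 of the 6 lay above 0 with WS1442 and 3 with the MeOH eluate. The summed level of 9 mesenchyme markers overlapped between the groups at 24 h, at 10.67 to 10.81, 10.66 to 10.74 and 10.66 to 10.75, while single members moved in both directions. Incorporation of the Cy3 label at 24 h was 25.8 to 26.1 pmol per µg with DMSO, 31.8 to 32.8 with WS1442 and 27.1 to 30.3 with the MeOH eluate, so dye incorporation and treatment cannot be told apart there. The 6 h and 24 h samples lay on separate slides, and levels at the 2 times are not compared.

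Of the 44 genes, 37 had a probe that passed the background flag in all samples of 1 group or more, and 34 of the 44 had one that passed on all 16 arrays. The 7 others were not tested: Col3a1, Col5a3 and Col24a1 of the fibrillar class, Col4a3 of collagen IV, Col19a1 and Col20a1 of the FACITs, and the cartilage gene Col10a1. Col3a1, the fibrillar partner of type I collagen in skin and vessels, passed the flag on 0 of 16 arrays with each of its 3 probes. The other 6 genes each had a probe above background on a single array. Levels below are log2 signals of 1 probe per gene, and levels of different genes are not compared.

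With both preparations more collagen genes were called at 24 h than at 6 h. A gene was called where its limma adjusted p over all 29301 genes was under 0.05. With WS1442 at 6 h, 1 of the 37 collagen genes was called, and it was lower, beside 5.59% of all genes tested (4.14% higher and 1.45% lower). For the MeOH eluate at 6 h, 2 were higher and 4 lower, or 16.2% of the 37, beside 17% of all genes (8.66% higher and 8.39% lower). With WS1442 at 24 h, 5 were higher and 6 lower, or 29.7%, beside 24.7% of all genes (12.9% and 11.9%). With the MeOH eluate at 24 h, 8 were higher and 8 lower, or 43.2%, beside 18.2% of all genes (9.64% and 8.6%). With 75th percentile scaling the higher share among all calls with WS1442 moved from 74.1% to 85.1% at 6 h and from 52.0% to 40.2% at 24 h. The MeOH eluate at 24 h was the comparison in which the share of collagens called lay furthest from that of all genes. The median log2 fold change over the tested collagens was -0.10 for both preparations at 6 h, -0.04 with WS1442 and 0.00 with the MeOH eluate at 24 h, beside medians over all genes of -0.01, 0.00, 0.05 and 0.01. Among the 19 genes with a symbol on the array, 16 were tested, and the calls were 1, 3, 5 and 6 in the same order. Most of these genes were tested through a probe without a symbol. Of the 26 probes with a symbol, 5 passed the background filter. Of the 37 tested genes, 3 were tested through such a probe and 34 through a probe named by accession. Past the limits the study used, more than 2-fold with an unadjusted p under 0.05, 0 collagen genes were at 6 h with either preparation, beside 0.43% of all genes with WS1442 and 2.11% with the MeOH eluate. At 24 h 2 were with WS1442, namely Col1a1 and Col4a6, beside 2.08% of all genes. For the MeOH eluate at 24 h 4 were, namely Col1a1, Col1a2, Col6a3 and Col4a6, beside 2.99% of all genes. Col4a6 is among them by its measured signal alone, since its controls were not well above background. The lower bound on its fold, given below, is under 2, so whether the fold passes 2 is not known.

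**Figure D1:**
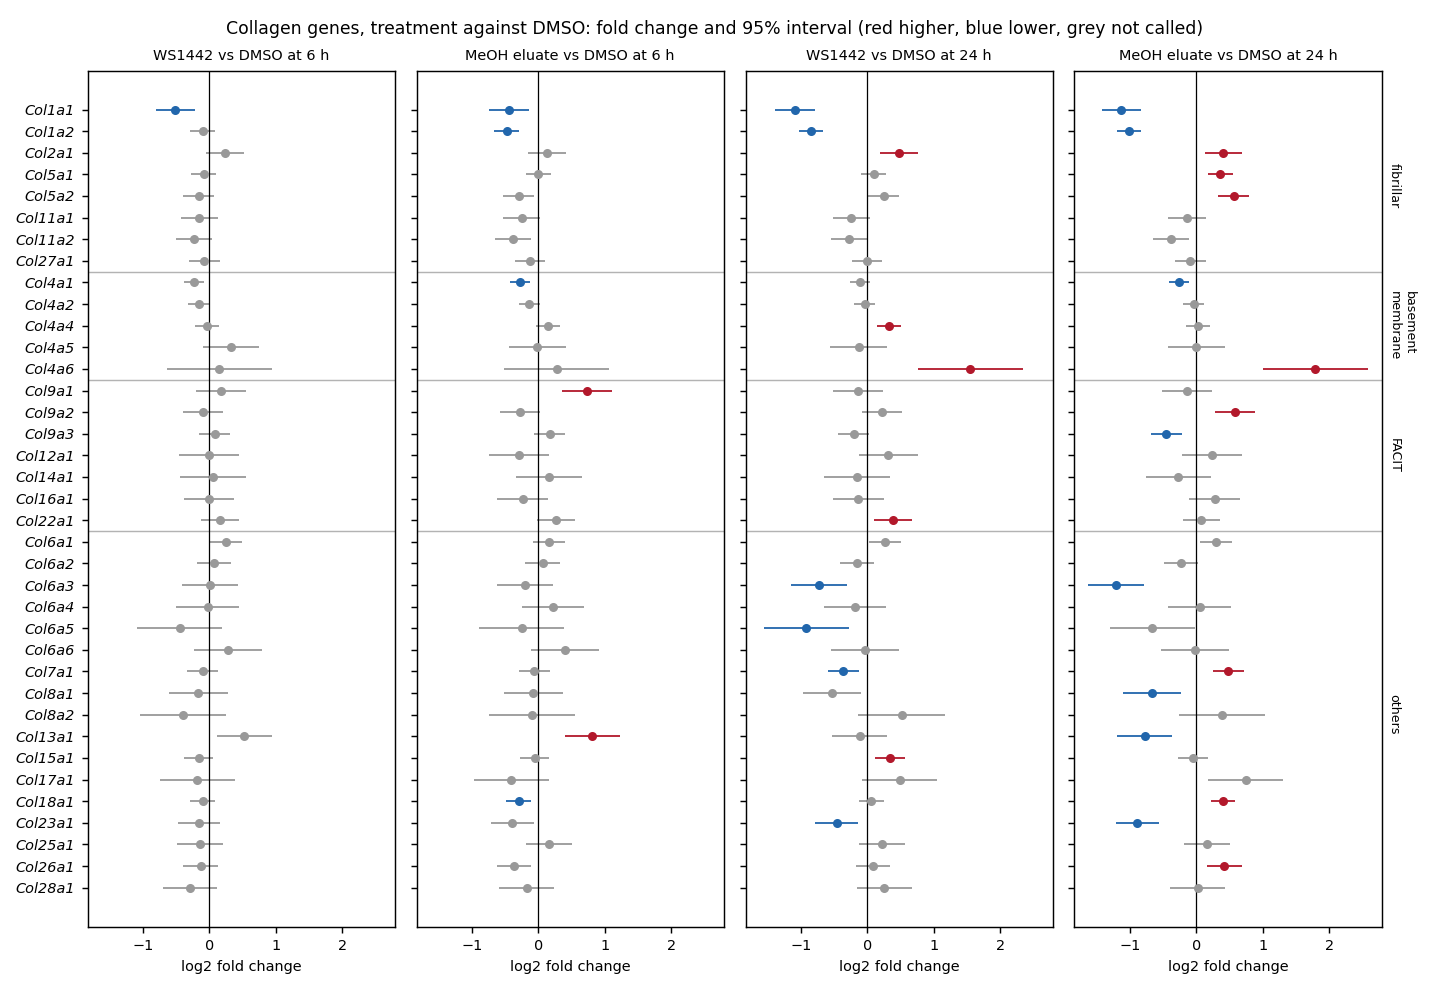
Log2 fold change against DMSO (points) with its 95% interval (lines) for each of the 37 tested collagen genes, by class, in the 4 treatment comparisons. Red points were called higher and blue points lower, and the type I genes Col1a1 and Col1a2 are blue in both panels at 24 h while Col2a1 is red in both.

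The 2 chains of type I collagen, the main fibre of bone, tendon and skin, were lower after 24 h with both preparations. In Col1a1, which encodes the chain present in duplicate in each trimer, the DMSO samples at 24 h were at 10.57 and 10.40, the WS1442 samples at 9.44, 9.53 and 9.21, and the MeOH eluate samples at 9.26, 9.28 and 9.52. Every treated sample was below both DMSO samples. Its log2 fold change was -1.09 ± 0.14 (SE) with WS1442 (adjusted p = 8.76e-05) and -1.13 ± 0.14 with the MeOH eluate (adjusted p = 4.6e-05). Its probe lies on chromosome 11 of the mm9 build, at chr11:94814188-94814247. A dimmer second probe of Col1a1 gave -0.71 (adjusted p = 0.034) and -1.09 (adjusted p = 0.0034); here and below, the p-values of second probes come from a separate limma fit and adjustment over all 36718 kept probes.

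In Col1a2, the gene of the partner chain, the DMSO samples at 24 h were at 10.17 and 10.10, the WS1442 samples at 9.34, 9.31 and 9.20, and the MeOH eluate samples at 9.14, 8.99 and 9.24. Here too no treated sample reached the DMSO range. Against DMSO the log2 fold change was -0.85 ± 0.09 with WS1442 (adjusted p = 1.95e-05) and -1.01 ± 0.09 with the MeOH eluate (adjusted p = 1.45e-06). Col1a1 and Col1a2 stayed called at 24 h with both preparations whichever single sample was left out and under each of the other limma fits. By Student's t-test, adjusted over all genes, all 4 of these calls were lost (adjusted p = 0.076 and 0.068 for Col1a1 and 0.055 and 0.062 for Col1a2). The study names this test for pairwise comparisons in general and not for its arrays. In RNA from whole cultures, fewer cells of a type and less RNA per cell cannot be told apart. The early mesoderm markers given above were lower alongside. Of 8 cardiac markers at 24 h, 0 were called higher and 4 lower with WS1442, and 0 higher and 5 lower with the MeOH eluate. Their summed level, mostly that of Actc1, was 13.91 to 13.92 with DMSO, 13.71 to 13.99 with WS1442 and 13.70 to 13.87 with the MeOH eluate. Among the called markers Myl7, an atrial myosin light chain, was at -1.17 (adjusted p = 0.00016) and -2.02 (adjusted p = 8.3e-07), and the transcription factor gene Gata4 at -0.72 (adjusted p = 0.00096) and -1.38 (adjusted p = 3.5e-06). Of the 9 mesenchyme markers, 2 were called higher and 2 lower with WS1442, and 2 higher and 3 lower with the MeOH eluate. Thy1, a surface protein of fibroblasts and other cells, was at -0.20 (adjusted p = 0.12) and -1.04 (adjusted p = 1.6e-06), and Pdgfrb, a growth factor receptor of mural and mesenchymal cells, at -0.47 (adjusted p = 0.024) and -0.68 (adjusted p = 0.0029). Twist2, a transcription factor gene of mesenchyme, lay on the other side of 0, at 0.35 (adjusted p = 0.015) and 0.47 (adjusted p = 0.003). The part of these markers' cells in the type I result was not tested.

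Of the type I genes at 6 h, Col1a2 was called between the preparations and Col1a1 was not. In Col1a2 the DMSO samples were at 9.70 and 9.63, the WS1442 samples at 9.39, 9.62 and 9.67, and the MeOH eluate samples at 9.22, 9.15 and 9.19. The WS1442 samples overlapped the DMSO samples and the MeOH eluate samples lay below both. This gave a log2 fold change of -0.48 ± 0.09 with the MeOH eluate (adjusted p = 0.0016), against -0.10 with WS1442 (95% interval -0.29 to 0.08, adjusted p = 0.57). The MeOH eluate was below WS1442 by a log2 difference of -0.37 (adjusted p = 0.0075), at the differing doses given above. Col1a1 at 6 h rested on 1 control: its DMSO samples were at 10.03 and 9.47, and the treated samples lay between 9.19 and 9.43. Its log2 fold change was -0.51 with WS1442 (adjusted p = 0.044) and -0.44 with the MeOH eluate (adjusted p = 0.04). Without DMSO replicate 1 these became -0.23 (adjusted p = 0.62) and -0.16 (adjusted p = 0.58). The WS1442 call of Col1a1 at 6 h was lost in 12 of the 16 fits that left out a sample.

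The stretch before the start of a gene shows what a promoter holds, so that of Col1a2 is printed here, with Col6a3, the other gene called lower with both preparations at 24 h that has a usable RefSeq window. The strings run 5′ to 3′ on the strand of the gene and end before the first annotated transcript. Col1a2 is at chr6:4505368-4505617 on the plus strand and Col6a3 at chr1:90844002-90844221 on the minus strand (RefSeq, GRCm38.p6). Capitals mark matches on either strand to CCAAT (the CCAAT box), GGGCGG (the GC box) or TATAAA (the TATA box).
Col1a2: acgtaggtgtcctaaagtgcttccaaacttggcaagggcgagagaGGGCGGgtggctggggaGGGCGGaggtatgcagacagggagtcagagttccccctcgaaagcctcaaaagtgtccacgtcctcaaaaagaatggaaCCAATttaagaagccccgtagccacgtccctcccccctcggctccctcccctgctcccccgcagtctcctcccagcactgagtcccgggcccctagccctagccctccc
Col6a3: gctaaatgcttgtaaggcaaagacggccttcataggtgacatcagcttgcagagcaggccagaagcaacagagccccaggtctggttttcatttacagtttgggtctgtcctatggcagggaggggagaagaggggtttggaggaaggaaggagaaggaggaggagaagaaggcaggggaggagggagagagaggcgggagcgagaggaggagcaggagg
Col1a2 holds 1 CCAAT and 2 GGGCGG matches in 250 bases, and Col6a3 holds none of the 3 motifs in 220 bases. Their GC content is 62.0% and 56.4%. Over the 250 bases before the start of all genes, 33.8% of 32851 windows held CCAAT, 32.7% held GGGCGG and 12.4% held TATAAA. Of 38 windows of collagen genes, 13 held CCAAT, 22 held GGGCGG and 5 held TATAAA. A match is a run of letters and not a shown binding site.

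The other fibrillar genes that were called lay on the opposite side of the controls from type I collagen. Of the 8 fibrillar genes tested, 1 was higher and 2 lower with WS1442 at 24 h (24.7% of all genes were called), and 3 were higher and 2 lower with the MeOH eluate (18.2% of all genes). At 6 h no fibrillar gene was called higher, and Col1a1 with WS1442 and Col1a1 and Col1a2 with the MeOH eluate were lower. In Col2a1, the collagen of cartilage and the notochord, the 24 h DMSO samples were at 8.13 and 7.91. The WS1442 samples were at 8.63, 8.53 and 8.34 and the MeOH eluate samples at 8.41, 8.23 and 8.65, all above the controls. Col2a1 had log2 fold changes of 0.48 ± 0.13 (adjusted p = 0.016) and 0.41 ± 0.13 (adjusted p = 0.043). Without DMSO replicate 2 they were 0.37 (adjusted p = 0.12) and 0.30 (adjusted p = 0.25). The MeOH eluate call of Col2a1 was lost in 8 of the 16 fits that left out a sample, and the WS1442 call in 2, the second being without WS1442 replicate 1 (0.41, adjusted p = 0.054).

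Of 5 chondrocyte markers looked up, 2 were measured. Their summed level at 24 h was 11.78 to 11.80 with DMSO, 11.98 to 12.12 with WS1442 and 11.82 to 11.97 with the MeOH eluate. It moved with Col2a1, and its part in that result was not tested. In each group at 24 h only 1 of the 2 was well above background in all samples. With WS1442 1 of the 2 was called higher and with the MeOH eluate 0 were, beside 24.7% and 18.2% of all genes. Most of the sum was Sox9, a transcription factor that is also made in neural and endodermal cells. The summed level of 5 neuroectoderm markers at 24 h was 11.64 to 11.68 with DMSO, 12.19 to 12.35 with WS1442 and 11.93 to 12.14 with the MeOH eluate. That sum follows its brightest members. Of the 5, 4 lay above 0 and 1 below with each preparation, from -0.35 to 0.78 with WS1442 and -0.62 to 0.82 with the MeOH eluate. With WS1442 3 were called higher and 0 lower, and with the MeOH eluate 2 higher and 1 lower, beside 24.7% and 18.2% of all genes.

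Type V collagen, which starts and limits the width of type I fibrils, was higher with the MeOH eluate at 24 h. In Col5a2 the DMSO samples were at 7.71 and 7.39, the WS1442 samples at 7.92, 7.71 and 7.75 and the MeOH eluate samples at 8.21, 8.11 and 8.01. The 3 MeOH eluate samples were the highest of the 8, and the WS1442 samples reached down to the upper control. Col5a2 had a log2 fold change of 0.56 ± 0.11 with the MeOH eluate (adjusted p = 0.0017), a call that no left-out sample removed, and 0.25 with WS1442 (95% interval 0.02 to 0.48, adjusted p = 0.11). In Col5a1, its partner chain, the DMSO samples were at 12.20 and 12.08, the WS1442 samples at 12.21, 12.21 and 12.28 and the MeOH eluate samples at 12.51, 12.33 and 12.66. The log2 fold change of Col5a1 was 0.36 ± 0.09 with the MeOH eluate (adjusted p = 0.0086) and 0.10 with WS1442 (adjusted p = 0.47). Without DMSO replicate 2 that of the MeOH eluate was 0.30 (adjusted p = 0.077). Between the preparations the MeOH eluate was higher than WS1442 by 0.32 in Col5a2 (adjusted p = 0.039) and 0.27 in Col5a1 (adjusted p = 0.034).

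The minor fibrillar genes Col11a1, Col11a2 and Col27a1 were called in none of the 4 comparisons in the fit over genes. Col11a2, a chain of the thin fibrils of cartilage, came nearest, at -0.38 with the MeOH eluate at both times (adjusted p = 0.052 at 6 h and 0.051 at 24 h). In the fit over all probes the same Col11a2 probe fell just inside the threshold (adjusted p = 0.0489 and 0.0485). The other kept Col11a2 probes, each well above background on all 16 arrays, were not called with the MeOH eluate. They gave 0.50, 0.23 and 0.02 at 6 h, above 0, and -0.05, -0.17 and -0.12 at 24 h. The log2 fold changes of Col27a1 lay between -0.13 and 0.00.

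**Figure D2:**
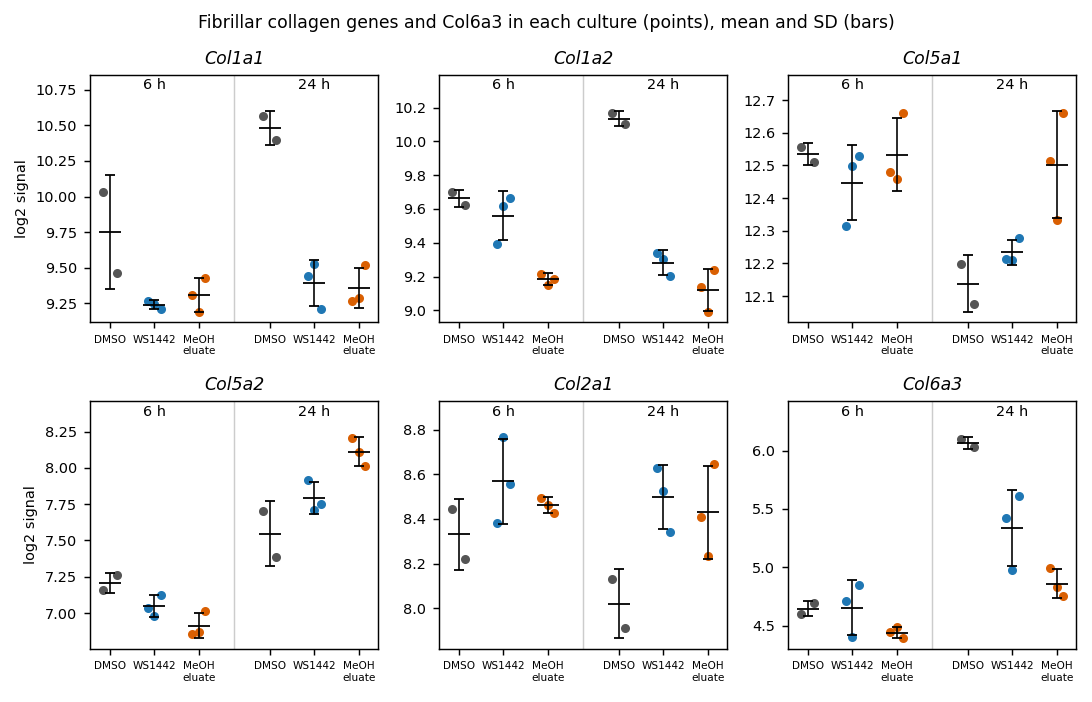
Log2 signal of 5 fibrillar collagen genes and Col6a3 in each sample (points) by treatment and time, with the group mean and SD (bars). At 24 h the DMSO points of Col1a1, Col1a2 and Col6a3 lie above all treated points, and those of Col2a1 lie below them.

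Collagen IV showed small differences in its bright genes. Col4a1 and Col4a2 encode the chains found in nearly all basement membranes, and their genes lie head to head with 21 bases between their starts. In Col4a1 at 6 h the DMSO samples were at 11.73 and 11.70, the WS1442 samples at 11.47, 11.45 and 11.50 and the MeOH eluate samples at 11.38, 11.45 and 11.47. No treated sample reached the controls. Relative to DMSO the log2 fold change was -0.28 ± 0.07 with the MeOH eluate (adjusted p = 0.014) and -0.24 with WS1442 (95% interval -0.39 to -0.09, adjusted p = 0.065). Without DMSO replicate 1 the value for the MeOH eluate was -0.27 (adjusted p = 0.11), and without replicate 2 it was -0.29 (adjusted p = 0.056). At 24 h the log2 fold change of Col4a1 was -0.25 ± 0.07 with the MeOH eluate (adjusted p = 0.02) and -0.11 with WS1442 (adjusted p = 0.29). That call was lost without DMSO replicate 1 (-0.20, adjusted p = 0.21), without MeOH eluate replicate 1 (-0.22, adjusted p = 0.073) and without MeOH eluate replicate 2 (-0.20, adjusted p = 0.074). A second probe of Col4a1 was called at 24 h with WS1442 instead (-0.42, adjusted p = 0.026) and not with the MeOH eluate (-0.34, adjusted p = 0.08).

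Col4a2 was called in none of the 4 comparisons. Its log2 fold changes were -0.16 and -0.13 at 6 h and -0.04 with both preparations at 24 h, where the 95% interval ran from -0.20 to 0.12. Markers of primitive and parietal endoderm, cells that lay down much collagen IV in the embryo, gave a summed level over 9 of 10 genes at 24 h of 11.55 to 11.59 with DMSO, 11.41 to 11.56 with WS1442 and 10.83 to 11.08 with the MeOH eluate. At 6 h this level was 11.17 to 11.20, 10.86 to 10.97 and 10.49 to 10.66 in the same order. This sum follows its brightest members, and single members moved in both directions. At 24 h 4 of the 9 lay above 0 and 5 below with WS1442, with log2 fold changes from -1.24 to 0.64. With the MeOH eluate 3 lay above 0 and 6 below, from -1.65 to 0.52. At 6 h 2 lay above 0 with WS1442 and 1 with the MeOH eluate. The part of these endoderm cells in the Col4a1 result was not tested.

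The chains of restricted basement membranes, such as those of the kidney filter, gave 3 further results. Col4a4 at 24 h was at 8.57 and 8.64 with DMSO, at 8.83, 8.90 and 9.06 with WS1442 and at 8.63, 8.62 and 8.63 with the MeOH eluate. It was higher with WS1442 (log2 fold change 0.33 ± 0.08, adjusted p = 0.0097) and not called with the MeOH eluate (0.03, adjusted p = 0.89). The MeOH eluate was lower than WS1442, at -0.30 (adjusted p = 0.015). Without DMSO replicate 1 the WS1442 value of Col4a4 was 0.29 (adjusted p = 0.093).

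Col4a6 and Col4a5 also lie head to head, 1343 bases between their starts, and gave unlike values. Col4a6 at 24 h was at 1.76 and 3.21 with DMSO, at 3.70, 4.19 and 4.20 with WS1442 and at 3.77, 4.59 and 4.46 with the MeOH eluate. It was not well above background in either DMSO sample and was in 2 of 3 samples of each treatment, so that its fold is only a bound, the dim side being set at the lowest signal well above background. With the dim side so set, Col4a6 was at least 1.41-fold higher in the WS1442 samples and at least 1.67-fold higher in the MeOH eluate samples than with DMSO. These bounds are approximate, since a sample of each treatment was itself not well above background. The limma adjusted p-values, 0.0068 and 0.003, belong to the measured signals and not to the bounds. Without DMSO replicate 1 the measured log2 fold changes fell from 1.55 and 1.79 to 0.82 (adjusted p = 0.14) and 1.06 (adjusted p = 0.064). At 6 h, where Col4a6 was well above background in all 8 samples, its log2 fold changes were 0.15 (adjusted p = 0.88) and 0.27 (adjusted p = 0.68). In Col4a5 the log2 fold changes at 24 h were -0.13 (95% interval -0.55 to 0.30) and 0.00 (95% interval -0.42 to 0.43), and it was called in none of the 4 comparisons.

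Of the partners of collagen IV in the basement membrane, 16 genes of laminins, nidogens, perlecan, agrin and peroxidasin were tested. With WS1442 2 were called higher and 0 lower at 6 h (12.5%, beside 5.59% of all genes), and 5 higher and 2 lower at 24 h (43.8%, beside 24.7%). The MeOH eluate gave 3 higher and 2 lower at 6 h (31.2%, beside 17%), and 6 higher and 3 lower at 24 h (56.2%, beside 18.2%). The laminin genes moved in both directions at 24 h. Lama5 was higher by 0.56 with WS1442 (adjusted p = 8.8e-05) and 0.55 with the MeOH eluate (adjusted p = 7.1e-05), whereas Lama4 was lower, at -0.47 (adjusted p = 5e-04) and -0.68 (adjusted p = 2e-05). Lamb2 was higher in all 4 comparisons, by 0.33 to 0.47, and Lama1, of the first laminin of the embryo, was called in none.

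Most calls of FACIT genes were of the chains of collagen IX, which coats the fibrils of type II collagen. Of the 7 FACIT genes tested, 0 were called with WS1442 at 6 h and 1 was higher with the MeOH eluate at 6 h. At 24 h 1 was higher with WS1442, and 1 was higher and 1 lower with the MeOH eluate. These are 0%, 14.3%, 14.3% and 28.6% of the 7, beside 5.59%, 17%, 24.7% and 18.2% of all genes. The 3 chains of collagen IX did not move together. Col9a1 at 6 h was at 6.93 and 7.35 with DMSO, at 7.78, 7.04 and 7.12 with WS1442 and at 7.91, 7.91 and 7.81 with the MeOH eluate. It was higher with the MeOH eluate at that time (0.73 ± 0.18, adjusted p = 0.011), which fell to 0.53 (adjusted p = 0.18) without DMSO replicate 1.

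At 24 h the log2 fold change of Col9a1 with the MeOH eluate was -0.14 (adjusted p = 0.7). Col9a2 was higher there, with DMSO at 6.11 and 6.00 and the MeOH eluate at 6.69, 6.58 and 6.65 (0.59 ± 0.14, adjusted p = 0.0086). Col9a3 was lower, with DMSO at 7.32 and 7.18 and the MeOH eluate at 6.90, 6.78 and 6.74 (-0.45 ± 0.11, adjusted p = 0.009). In both genes the MeOH eluate and DMSO samples did not overlap. With WS1442 neither was called at 24 h, at 0.22 for Col9a2 and -0.21 for Col9a3. The call of Col9a2 was lost without DMSO replicate 2 (0.53, adjusted p = 0.058) and that of Col9a3 without DMSO replicate 1 (-0.38, adjusted p = 0.11).

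Col22a1, a collagen of the junction between muscle and tendon, was higher with WS1442 at 24 h by 0.38 ± 0.13 (adjusted p = 0.046). Its DMSO samples were at 6.29 and 6.33 and its WS1442 samples at 6.58, 6.72 and 6.78. The call was lost in 10 of the 16 fits that left out a sample, with values of 0.34 to 0.40. Col12a1, Col14a1 and Col16a1 were called in none of the 4 comparisons.

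Among the other collagens the beaded-filament gene Col6a3 had the lowest log2 fold change with the MeOH eluate at 24 h. Type VI collagen links cells to the surrounding fibres, and Col6a3 encodes its longest chain of the main trimer. At 24 h Col6a3 was at 6.10 and 6.03 with DMSO, at 5.42, 4.98 and 5.61 with WS1442 and at 5.00, 4.83 and 4.75 with the MeOH eluate. All treated samples were below the controls. Col6a3 had a log2 fold change of -0.73 ± 0.20 with WS1442 (adjusted p = 0.014) and -1.20 ± 0.20 with the MeOH eluate (adjusted p = 0.00046). Without DMSO replicate 1 the WS1442 value was -0.69 (adjusted p = 0.092) and without WS1442 replicate 2 it was -0.55 (adjusted p = 0.053), while the MeOH eluate call was kept whichever sample was left out.

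The partner chains of Col6a3 were not called. Col6a1 was at 0.26 (adjusted p = 0.11) and 0.30 (adjusted p = 0.077) at 24 h, on the other side of 0, and Col6a2 at -0.15 (adjusted p = 0.39) and -0.23 (adjusted p = 0.23). Col6a5, which can stand in for Col6a3 in the trimer, was well above background at 24 h in 2 of 2 DMSO samples, at 4.64 and 4.68, and in 1 of 3 WS1442 samples, at 4.07, 3.91 and 3.23. It was called lower with WS1442 on these signals (-0.92, adjusted p = 0.036), and the size of that difference rests on values mostly not above background. This call was lost without either DMSO sample (-0.94, adjusted p = 0.14, and -0.90, adjusted p = 0.11) and without WS1442 replicate 3 (-0.66, adjusted p = 0.14).

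Col7a1, which forms the anchoring fibrils that tie epithelial basement membranes to the tissue below, was lower with WS1442 and higher with the MeOH eluate. At 24 h it was at 8.25 and 7.88 with DMSO, at 7.76, 7.77 and 7.59 with WS1442 and at 8.56, 8.48 and 8.60 with the MeOH eluate. The controls lay between the treated groups and did not overlap with either. The log2 fold change was -0.36 ± 0.11 with WS1442 (adjusted p = 0.025) and 0.48 ± 0.11 with the MeOH eluate (adjusted p = 0.0059). The direct difference, MeOH eluate over WS1442, was 0.84 ± 0.10 (adjusted p = 0.00015).

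Each effect of Col7a1 against DMSO leaned on 1 control. Without DMSO replicate 1 the WS1442 value was -0.17 (adjusted p = 0.39), without WS1442 replicate 3 it was -0.30 (adjusted p = 0.095), and without DMSO replicate 2 the MeOH eluate value was 0.29 (adjusted p = 0.1). A second Col7a1 probe gave -0.26 (adjusted p = 0.3), 0.22 (adjusted p = 0.48) and a direct difference of 0.48 (adjusted p = 0.054). At 6 h Col7a1 was called with neither, at -0.10 and -0.06. The 3 keratinocyte markers looked up had summed levels at 24 h of 10.47 to 10.48 with DMSO, 10.47 to 10.52 with WS1442 and 10.47 to 10.55 with the MeOH eluate, of which Krt5, a keratin of basal epithelial cells and the dimmest of them, was higher with both, by 0.99 (adjusted p = 0.0077) and 0.79 (adjusted p = 0.032). The part of such cells in the Col7a1 result was not tested.

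The transmembrane collagens Col23a1 and Col13a1 were lower with the MeOH eluate at 24 h. Col23a1 was at 7.27 in both DMSO samples, at 6.76, 6.78 and 6.90 with WS1442 and at 6.51, 6.52 and 6.12 with the MeOH eluate. The 3 groups did not overlap. The log2 fold change was -0.46 ± 0.15 with WS1442 (adjusted p = 0.038) and -0.89 ± 0.15 with the MeOH eluate (adjusted p = 0.00068), and the MeOH eluate was below WS1442, at -0.43 (adjusted p = 0.045). No left-out sample removed the MeOH eluate call. The WS1442 call was lost without any one of the 5 samples compared, with values of -0.50 to -0.43 and an adjusted p of up to 0.15. A second Col23a1 probe was called with neither, at -0.40 and -0.61.

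Col13a1, found at neuromuscular junctions and cell adhesions, was higher with the MeOH eluate at 6 h and lower at 24 h. At 6 h it was at 5.84 and 6.22 with DMSO, at 6.65, 6.22 and 6.80 with WS1442 and at 6.81, 7.0 and 6.72 with the MeOH eluate. At 24 h it was at 7.55 and 7.73 with DMSO, at 7.45, 7.43 and 7.69 with WS1442 and at 7.07, 7.01 and 6.50 with the MeOH eluate. The MeOH eluate samples lay above both controls at 6 h and below both at 24 h. The log2 fold change was 0.81 ± 0.19 (adjusted p = 0.0099) and then -0.78 ± 0.19 (adjusted p = 0.01), and the 2 effects differed by -1.59 (adjusted p = 0.002). The 6 h call was lost without DMSO replicate 1 (0.62, adjusted p = 0.15) and the 24 h call without DMSO replicate 2 (-0.69, adjusted p = 0.071). With WS1442 the log2 fold change was 0.52 (adjusted p = 0.13) and then -0.11 (adjusted p = 0.72). A dim second probe, well above background on 9 arrays, gave -0.27 at 6 h (adjusted p = 0.77) and -0.69 at 24 h (adjusted p = 0.38) with the MeOH eluate.

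Col18a1 and Col15a1 encode the multiplexins, basement membrane collagens whose ends release endostatin-like fragments. Col18a1 was at 11.09 and 11.03 with DMSO and at 10.79, 10.70 and 10.79 with the MeOH eluate at 6 h. At 24 h it was at 10.92 and 10.80 with DMSO and at 11.21, 11.24 and 11.35 with the MeOH eluate. It thus moved from below the controls to above them, with log2 fold changes of -0.30 ± 0.09 (adjusted p = 0.029) and 0.41 ± 0.09 (adjusted p = 0.0038). The 24 h call was kept whichever sample was left out, whereas the 6 h call was lost without any one of the 5 samples compared, at -0.33 to -0.27 and an adjusted p of up to 0.2. With WS1442 the values were -0.10 (adjusted p = 0.58) and 0.06 (adjusted p = 0.65). A dimmer second Col18a1 probe, well above background on all 16 arrays, was called with the MeOH eluate at neither time. It gave -0.28 at 6 h (adjusted p = 0.395) and 0.47 at 24 h (adjusted p = 0.133).

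Col15a1 was higher with WS1442 at 24 h, where DMSO was at 9.40 and 9.31, WS1442 at 9.66, 9.61 and 9.82 and the MeOH eluate at 9.20, 9.42 and 9.29. Its log2 fold change was 0.34 ± 0.10 with WS1442 (adjusted p = 0.027) and -0.05 with the MeOH eluate (adjusted p = 0.83). The direct difference, MeOH eluate over WS1442, was -0.39 (adjusted p = 0.011). The WS1442 call was lost without DMSO replicate 1 (0.39, adjusted p = 0.075), without DMSO replicate 2 (0.29, adjusted p = 0.13) and without WS1442 replicate 3 (0.28, adjusted p = 0.1). A second Col15a1 probe was not called (0.11, adjusted p = 0.79). Endothelial markers, 6 of 7 measured, had overlapping summed levels at 24 h, at 9.56 to 9.70 with DMSO, 9.59 to 9.71 with WS1442 and 9.52 to 9.60 with the MeOH eluate. The sum follows its brightest members. Of the 6, 4 lay above 0 and 2 below with WS1442, and 2 above and 4 below with the MeOH eluate. With WS1442 0 were called, and with the MeOH eluate 1 was, Cdh5, beside 24.7% and 18.2% of all genes. Cdh5, the cadherin of endothelial junctions, was at 4.81 and 5.01 with DMSO and at 4.40, 4.07 and 3.77 with WS1442 (-0.83, adjusted p = 0.15). It was not well above background in any of the 3 MeOH eluate samples. The bound there, set as for Col4a6, was 2.08-fold lower, and the measured signals gave a limma adjusted p of 0.0013. The part of endothelial cells in the Col15a1 and Col18a1 results was not tested.

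With the MeOH eluate at 24 h Col26a1 was higher by 0.42 ± 0.12 (adjusted p = 0.024), and Col8a1, a network collagen of vessels and of the membrane behind the cornea, was lower, at -0.66 ± 0.20 (adjusted p = 0.037). Col26a1 was at 7.79 and 7.64 with DMSO and at 8.20, 8.22 and 8.01 with the MeOH eluate. Col8a1 was at 6.87 and 6.52 with DMSO and at 6.33, 5.77 and 5.99 with the MeOH eluate. Both calls rested on single samples: Col26a1 was lost in 4 of 16 such fits, at its lowest without DMSO replicate 2 (0.35, adjusted p = 0.14), and Col8a1 in 3, at its smallest without DMSO replicate 1 (-0.49, adjusted p = 0.3). A second Col26a1 probe, well above background on all 16 arrays, gave 0.16 (adjusted p = 0.45). The genes Col6a2, Col6a4, Col6a6, Col8a2, Col17a1, Col25a1 and Col28a1 were called in none of the 4 comparisons, and Col17a1, an epithelial adhesion collagen, came nearest with the MeOH eluate at 24 h (0.75, adjusted p = 0.065).

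**Figure D3:**
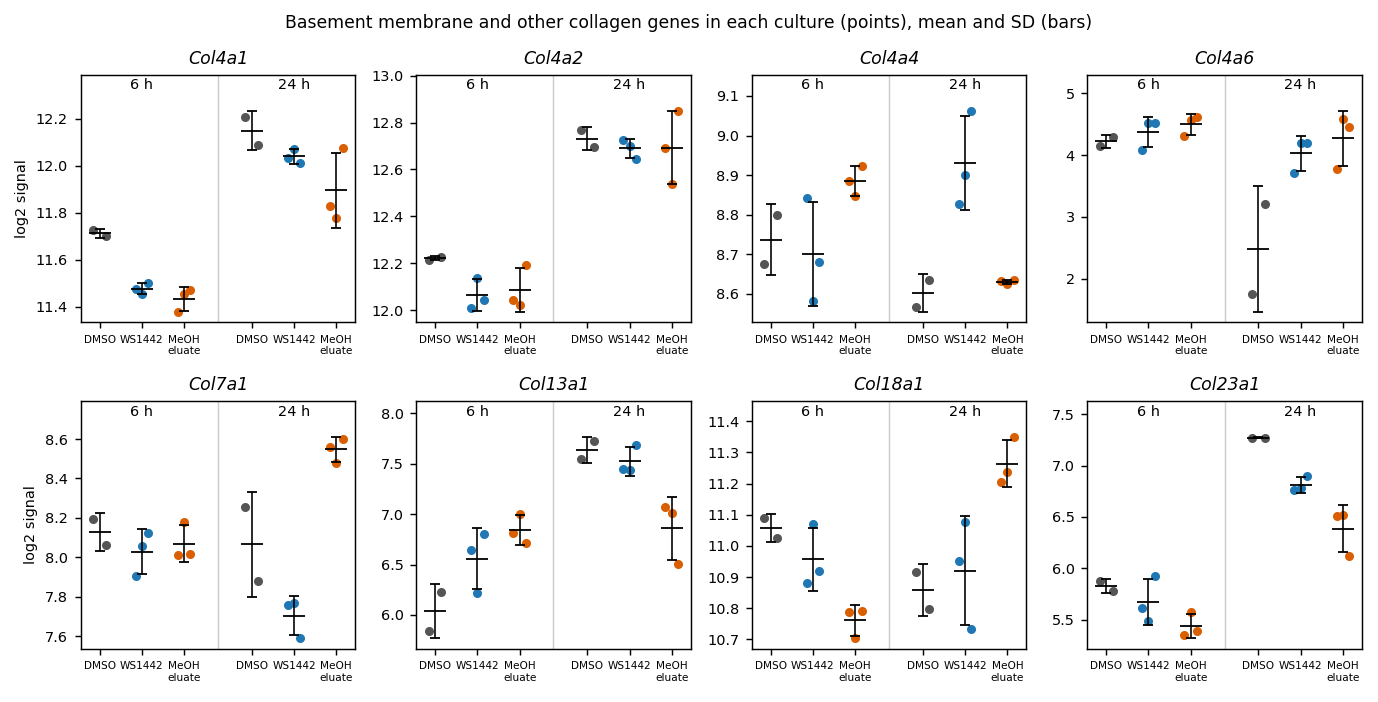
Log2 signal of 4 collagen IV genes and of Col7a1, Col13a1, Col18a1 and Col23a1 in each sample (points) by treatment and time, with the group mean and SD (bars). At 24 h the points of Col7a1 lie below the controls with WS1442 and above them with the MeOH eluate, and in Col13a1 and Col18a1 the MeOH eluate changes side between 6 h and 24 h.

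The comparisons with DMSO share their 2 controls at each time, so the preparations were also set against each other. Compared directly at 24 h, the MeOH eluate was higher than WS1442 in 5 collagen genes and lower in 4, beside 14.6% of all genes called. The 5 were Col7a1, Col18a1, Col26a1, Col5a2 and Col5a1, at 0.84, 0.34, 0.34, 0.32 and 0.27. The 4 were Col13a1, Col23a1, Col15a1 and Col4a4, at -0.66, -0.43, -0.39 and -0.30. Second probes lay on the other side of 0 for Col26a1 (-0.11, adjusted p = 0.61) and Col15a1 (0.17, adjusted p = 0.68). Those of Col7a1, Col18a1, Col13a1 and Col23a1 kept the sign and were not called. Without WS1442 replicate 3 this count of 9 became 2, both higher. At 6 h 2 were called, Col9a1 at 0.56 and Col1a2 at -0.37, beside 12.1% of all genes. Since the doses were 0.25 and 0.1 mg/ml, these differences compare 2 treatments as given and not equal amounts.

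Some effects differed between 6 h and 24 h beyond the spread between samples. With the MeOH eluate 11 of the 37 genes had a called difference between the 2 effects, beside 7.78% of all genes, and with WS1442 2 had one, beside 12.7%. For the MeOH eluate, Col1a1, Col1a2, Col6a3, Col9a1, Col9a3 and Col13a1 were shifted down from 6 h to 24 h and Col5a2, Col7a1, Col9a2, Col18a1 and Col26a1 up. Without either 6 h control, and without DMSO 24 h replicate 1, the count of 11 became 6. For WS1442 the 2 genes were Col1a2 (-0.75, adjusted p = 0.0023) and Col15a1 (0.50, adjusted p = 0.038), and leaving out a sample gave 1 to 4 genes. Second probes of Col26a1 and Col15a1 gave values at the 2 times, printed below, that lay closer together.

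**Figure D4:**
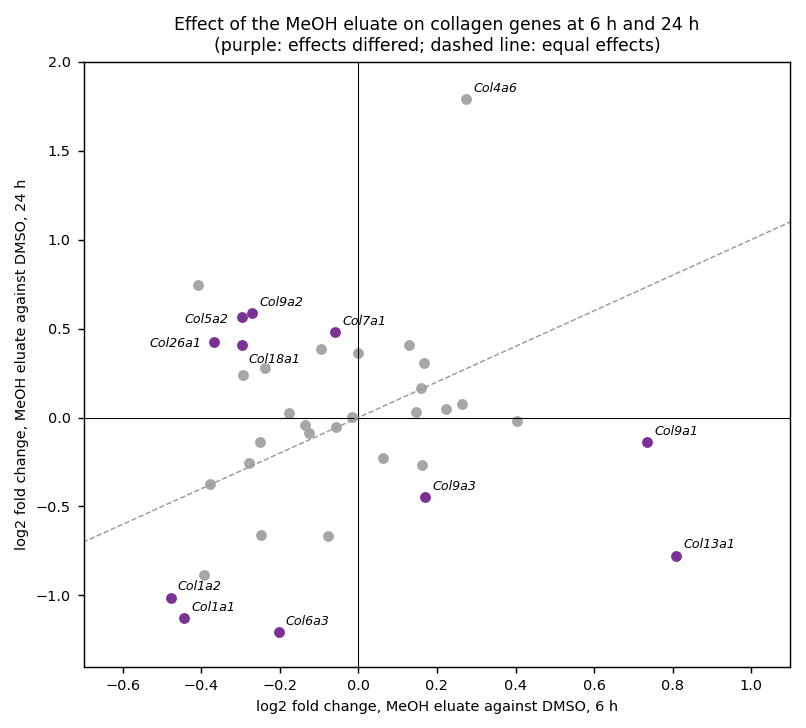
Log2 fold change with the MeOH eluate at 24 h (vertical axis) against that at 6 h (horizontal axis) for each of the 37 tested collagen genes (points). The 11 genes whose effects differed between the times are purple and lie off the dashed line of equal effects, with Col13a1 at 0.81 and -0.78 at the lower right.

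The enzymes and chaperones that modify and fold the chains were lower at 24 h more often than they were higher. Of 20 genes tested, 1 was higher and 9 lower with WS1442 at 24 h, beside 12.9% of all genes higher and 11.9% lower. With the MeOH eluate at 24 h 0 were higher and 6 lower, beside 9.64% and 8.6%. At 6 h 2 were higher and 0 lower with WS1442 (4.14% and 1.45% of all genes), and 3 were higher and 1 lower with the MeOH eluate (8.66% and 8.39%). The median log2 fold change of the list was 0.06 and 0.05 at 6 h and -0.16 and -0.11 at 24 h, beside the medians of all genes given above.

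P4ha1, a gene of prolyl 4-hydroxylase, turned from higher to lower with both preparations. This enzyme makes the hydroxyproline that holds the triple helix together, and P4ha1 and P4ha2 encode alternative catalytic subunits. P4ha1 at 6 h was at 8.58 and 8.84 with DMSO, at 8.99, 9.06 and 9.10 with WS1442 and at 9.07, 9.18 and 9.26 with the MeOH eluate. P4ha1 at 24 h was at 9.77 and 9.80 with DMSO, at 9.37, 9.60 and 9.40 with WS1442 and at 9.35, 9.36 and 9.20 with the MeOH eluate. All treated samples of P4ha1 were above the controls at 6 h and below them at 24 h. The log2 fold changes of P4ha1 were 0.34 (adjusted p = 0.042) and 0.46 (adjusted p = 0.0034) at 6 h and -0.33 (adjusted p = 0.017) and -0.48 (adjusted p = 0.0016) at 24 h. The effects at the 2 times differed by -0.67 with WS1442 (adjusted p = 0.0055) and -0.94 with the MeOH eluate (adjusted p = 0.00034).

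P4ha2 gave 0.32 (adjusted p = 0.11) and 0.58 (adjusted p = 0.0024) at 6 h and -0.34 (adjusted p = 0.034) and -0.66 (adjusted p = 0.00056) at 24 h. Plod2, a lysyl hydroxylase that prepares the crosslinks of fibrillar collagen, gave 0.38 (adjusted p = 0.023) and 0.45 (adjusted p = 0.0028) at 6 h and -0.03 (adjusted p = 0.85) and -0.34 (adjusted p = 0.012) at 24 h. P4hb, the shared subunit that is also a general disulfide isomerase, was called at 24 h only, at -0.27 (adjusted p = 0.00034) and -0.26 (adjusted p = 0.00046). P4ha3, another catalytic subunit gene with a dim signal, was called in none of the 4 comparisons.

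Serpinh1 separated the preparations. It encodes Hsp47, a chaperone dedicated to procollagen, and was at 11.60 and 11.58 with DMSO at 24 h, at 11.26, 11.18 and 11.11 with WS1442 and at 11.52, 11.55 and 11.57 with the MeOH eluate. The log2 fold change of Serpinh1 was -0.41 ± 0.05 with WS1442 (adjusted p = 4.8e-05) and -0.04 with the MeOH eluate (95% interval -0.15 to 0.06), a direct difference of 0.37 (adjusted p = 0.00016). Ppib, the cyclophilin of the prolyl 3-hydroxylation complex, gave -0.43 (adjusted p = 9e-04) and -0.08 (adjusted p = 0.54), with a direct difference of 0.34 (adjusted p = 0.0036). Both were thus lower with WS1442 than with the MeOH eluate, although Col1a1 and Col1a2 were lower with both.

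**Figure D5:**
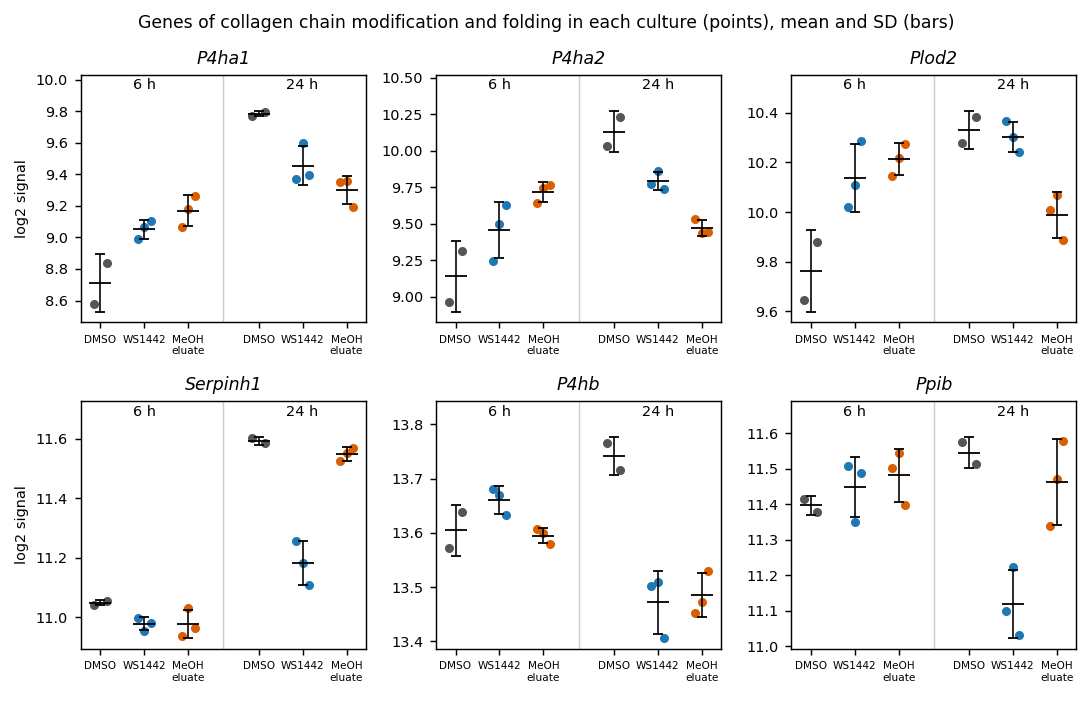
Log2 signal of 6 genes of collagen chain modification and folding in each sample (points) by treatment and time, with the group mean and SD (bars). The treated points of P4ha1 lie above the controls at 6 h and below them at 24 h, and those of Serpinh1 and Ppib at 24 h are low with WS1442 alone.

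Of 18 genes of procollagen processing and secretion, 1 was higher and 3 lower with WS1442 at 6 h, 4 higher and 4 lower with the MeOH eluate at 6 h, 5 higher and 4 lower with WS1442 at 24 h, and 3 higher and 5 lower with the MeOH eluate at 24 h. These are 22.2%, 44.4%, 50.0% and 44.4% of the list, beside 5.59%, 17%, 24.7% and 18.2% of all genes. The proteinases that cut the ends of procollagen did not move together. Adamts3 was higher with WS1442 at 24 h by 1.11 (adjusted p = 5.5e-05), where the MeOH eluate gave 0.25 (adjusted p = 0.24), and Adamts14 was higher with the MeOH eluate at 6 h by 1.08 (adjusted p = 0.00052). Tll1 was lower with the MeOH eluate at both times, at -0.86 (adjusted p = 0.00035) and -0.76 (adjusted p = 0.00055). Bmp1, the main C-terminal proteinase, was higher with both at 24 h, by 0.46 (adjusted p = 0.0016) and 0.43 (adjusted p = 0.0025). Sparc, a matrix protein that binds collagen, was higher with the MeOH eluate at 24 h by 0.45 (adjusted p = 2.1e-05) and with WS1442 by 0.15 (adjusted p = 0.039).

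Among 5 crosslinking genes, 1 was higher and 1 lower with WS1442 at 6 h, 1 higher and 3 lower with the MeOH eluate at 6 h, 1 higher with WS1442 at 24 h and 2 higher with the MeOH eluate at 24 h, beside 5.59%, 17%, 24.7% and 18.2% of all genes. Loxl4, a lysyl oxidase-like gene, was higher at 6 h by 0.64 (adjusted p = 0.003) and 1.21 (adjusted p = 2.4e-06). Lox, the lysyl oxidase of fibrillar collagen, was well above background at 6 h in 2 of 2 DMSO, 2 of 3 WS1442 and 1 of 3 MeOH eluate samples. It was called lower with the MeOH eluate on these signals (adjusted p = 0.024) and not with WS1442 (adjusted p = 0.098), and no size is given for a difference that rests on values mostly not above background. Tgm2, a transglutaminase, was higher at 24 h by 0.59 (adjusted p = 9.5e-05) and 0.76 (adjusted p = 7.1e-06).

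Of 9 collagen receptor genes, 0, 1, 2 and 1 were called with WS1442 at 6 h, the MeOH eluate at 6 h, WS1442 at 24 h and the MeOH eluate at 24 h, shares below the 5.59%, 17%, 24.7% and 18.2% of all genes. Ddr1, a receptor kinase for collagen, was higher with the MeOH eluate at both times, by 0.36 (adjusted p = 0.017) and 0.51 (adjusted p = 0.0014). Itgb1, the subunit shared by the collagen-binding integrins, was higher with WS1442 at 24 h by 0.29 (adjusted p = 0.0081). Of 9 collagen degradation genes, 0, 1, 3 and 2 were called in the same order, all of them higher, beside the same shares of all genes.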

How the data were processed

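RNA of 16 samples had been hybridised to one-colour Agilent arrays and scanned by the authors' service provider, and the deposited files give a processed intensity per spot (dye Cy3, background subtracted by the scanner software, linear scale) with flags for background. A deposited value table holds the same arrays after the authors' quantile normalization; each of its 16 columns correlated best with its own array (lowest correlation 0.998). It served as an alternative, since it carries no flags. Here log2 intensity was quantile normalized, spots of a probe were averaged, probes that passed the background flag in all samples of 1 group or more were retained (36718), and the brightest kept probe stood for a gene. limma 3.58.1 (R 4.3.3) fitted 6 group means with a trended prior, and p-values were adjusted by the Benjamini-Hochberg method over 29301 genes. Study limits were a fold above 2 and an unadjusted p under 0.05. Accessions were named through RefSeq (GRCm38.p6). The coordinates in the files are mm9.

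The collagen genes and the pathway and marker lists were chosen with earlier results of these data known. All members could be named, and those called, plus 10 fixed genes, are described in full; up to 4 called genes of a pathway list, plus 8 fixed ones, were named. Alternatives were 75th percentile scaling, normexp background correction (offset 50), 2 other filters, the mean of all kept probes and the value table. Further ones were a fit within each time point, a replicate block, Student's t-test and leaving out each sample. Deviations of same-numbered samples from their group means correlated at -0.23 to 0.31 over 14 pairs, and the main fit did not pair samples. With 2 or 3 samples per group these correlations cannot exclude a pairing. The fit was tested on simulated data. Figures were drawn with matplotlib. The number of arrays limits the precision.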

Additional observations from a re-analysis of the deposited data

Results flagged for a closer look

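In 13 results the effect of a treatment at 24 h differed from its effect at 6 h (limma interaction, adjusted p under 0.05). With WS1442 the change in log2 fold change, 24 h minus 6 h, was -0.75 for Col1a2 and 0.50 for Col15a1. With the MeOH eluate it was -1.59 for Col13a1, -1.0 for Col6a3, -0.87 for Col9a1, -0.68 for Col1a1, -0.62 for Col9a3 and -0.53 for Col1a2. It was 0.86 for both Col5a2 and Col9a2, 0.79 for Col26a1, 0.70 for Col18a1 and 0.54 for Col7a1. These values are of 1 probe per gene. A second Col26a1 probe gave 0.12 at 6 h and 0.16 at 24 h with the MeOH eluate. A second Col15a1 probe gave 0.25 and then 0.11 with WS1442, a shift to the other side. Second probes of Col1a1, Col7a1, Col13a1 and Col18a1 shifted to the same side with the MeOH eluate. Col13a1 and Col18a1 were called on opposite sides of 0 at the 2 times. Treatment time, slide and the age of the cultures cannot be told apart in these differences.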

How the results depend on the processing

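With all settings as reported, 1, 6, 11 and 16 collagen genes were called with WS1442 at 6 h, the MeOH eluate at 6 h, WS1442 at 24 h and the MeOH eluate at 24 h, 2 and 9 between the preparations at 6 h and 24 h, and 2 and 11 for the difference between times with WS1442 and the MeOH eluate. The value table of the authors kept all 12 counts, including the 4 at the study limits, within 1.5 times. With 75th percentile scaling 0 were called for WS1442 at 6 h. Of all calls the share that was higher moved from 74.1% to 85.1% (WS1442, 6 h), from 50.8% to 42.5% (MeOH eluate, 6 h), from 52.0% to 40.2% (WS1442, 24 h) and from 52.8% to 42.9% (MeOH eluate, 24 h) under that scaling, so that all but the first turned from mostly higher to mostly lower. It moved no median over all genes by over 0.1. Without a background filter the counts were 0 (WS1442, 6 h), 7 (WS1442, 24 h), 1 and 5 (between the preparations), 1 (WS1442, between times) and 7 (MeOH eluate, between times), and 1 passed the study limits for WS1442 at 6 h. With the mean of all kept probes they were 3 (MeOH eluate, 6 h), 5 (between the preparations, 24 h), 1 and 7 (between times), and 1 passed the study limits for WS1442 at 24 h. Normexp left 1 past the study limits for WS1442 and 1 for the MeOH eluate at 24 h, and keeping probes above background on all arrays left 1 for WS1442. The fit within a time point gave 1 between the preparations at 6 h. With the replicate block the counts were 0 (WS1442, 6 h), 6 (WS1442, 24 h), 1 (between the preparations, 6 h) and 4 (MeOH eluate, between times). Whether the numbers pair the samples is not known, and 2 of 14 same-numbered pairs correlated above 0.1. Student's t-test after Benjamini-Hochberg adjustment called 0, 0, 0 and 1 against DMSO, the 1 being none of the 16 MeOH eluate calls at 24 h, and 0 and 1 between the preparations, and left 1 past the study limits for WS1442 at 24 h. It was not run for differences between times. The cause of these changes was not tested.

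Leaving out 1 sample gave 0 to 2 (WS1442, 6 h), 1 to 7 (MeOH eluate, 6 h), 4 to 11 (WS1442, 24 h), 10 to 17 (MeOH eluate, 24 h), 1 to 4 and 2 to 10 (between the preparations), and 1 to 4 and 6 to 11 (between times). The lowest counts at 24 h, 4 and 10, came without DMSO replicate 1. At the study limits it gave 0 for both preparations at 6 h, 1 to 3 for WS1442 and 3 to 5 for the MeOH eluate at 24 h. Across all limma settings 2 of the 11 WS1442 calls at 24 h (Col1a1 and Col1a2) were never lost, nor were 6 of the 16 MeOH eluate calls (Col1a1, Col1a2, Col5a2, Col6a3, Col18a1 and Col23a1), and Col1a2 was the 1 of 6 at 6 h. No call changed its sign under any setting. With 2 controls per time, 1 DMSO sample decides many of the smaller calls.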
